A study of Homo sapiens with 2 samples.

Results

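Mitochondrial ribosomal proteins (MRPs) are encoded by nuclear genes whose symbols begin with MRPL or MRPS and go on with a number. The genes described here were taken from the array by that rule: a probe was a member when its RefSeq mRNA accession mapped to such a symbol. The array carried 91 member probes for 77 genes, among 50599 non-control probes. Of these, 88 probes for 76 genes were well above background on both arrays and were compared, out of 17938 probes and 11994 named genes compared in all. HCT116, an established human colon cancer cell line, had been transfected with the pEB vector and kept in blasticidin selection medium for 2 weeks. In the HOXA5 short group the vector carried HOXA5 short RNA, a non-coding transcript of the HOXA5 locus, and the mock-transfected group was labeled as the control. By the study's text, the mock cells carried pEB-mock and were likewise selected with blasticidin. Both samples have the same protocol text, which names the HOXA5 short vector alone, and the groups follow the genotype label. Total RNA (400 ng) was labeled with Cy3 and hybridized in a single color, with 1 array per group. No difference could be tested, and each value below belongs to this pair of arrays and covers no spread between cultures.

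The mitochondrial ribosome translates the few mRNAs that mitochondrial DNA encodes, all for core subunits of the respiratory chain and ATP synthase. Its RNAs come from mitochondrial DNA, and all its proteins are made in the cytosol and imported. Many MRPs have a counterpart in bacterial ribosomes, and others were gained in mitochondria. The small subunit decodes the mRNA, and the large subunit joins the amino acids and is attached to the inner membrane, into which the products are inserted.

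A promoter window, from 250 bases before to 50 bases after the annotated start, was found in the RefSeq table (GRCh38.p14) for 69 of the 77 genes. The windows of the 3 members that differed at least 2-fold between the arrays are printed first. They lie at chr4:83455808-83456107, plus strand (MRPS18C), chr2:223957213-223957512, plus strand (MRPL44) and chr2:99180934-99181233, plus strand (MRPL30). The windows of MRPS18A (chr6:43687742-43688041, minus strand) and MRPS10 (chr6:42217812-42218111, minus strand) follow. They hold both of the letter patterns that were more frequent among the members than among compared genes. In all, 4 of the 69 members held both. Capitals mark matches, on either strand, to CCGGAAG (the core bound by ETS factors, which include GABP), AANATGGCG (the core bound by YY1), the palindromic core bound by NRF1 and CCAAT.
MRPS18C: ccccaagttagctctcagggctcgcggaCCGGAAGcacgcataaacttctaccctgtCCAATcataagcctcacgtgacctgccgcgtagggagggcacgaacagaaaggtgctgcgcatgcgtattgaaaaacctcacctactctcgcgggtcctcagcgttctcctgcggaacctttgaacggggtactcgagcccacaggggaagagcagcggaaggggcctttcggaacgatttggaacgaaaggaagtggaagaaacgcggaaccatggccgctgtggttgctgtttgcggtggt
MRPL44: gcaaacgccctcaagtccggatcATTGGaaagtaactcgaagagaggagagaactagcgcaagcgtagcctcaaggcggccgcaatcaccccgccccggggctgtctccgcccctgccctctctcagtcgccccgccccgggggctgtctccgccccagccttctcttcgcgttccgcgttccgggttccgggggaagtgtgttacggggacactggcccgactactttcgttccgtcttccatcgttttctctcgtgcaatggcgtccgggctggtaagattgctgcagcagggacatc
MRPL30: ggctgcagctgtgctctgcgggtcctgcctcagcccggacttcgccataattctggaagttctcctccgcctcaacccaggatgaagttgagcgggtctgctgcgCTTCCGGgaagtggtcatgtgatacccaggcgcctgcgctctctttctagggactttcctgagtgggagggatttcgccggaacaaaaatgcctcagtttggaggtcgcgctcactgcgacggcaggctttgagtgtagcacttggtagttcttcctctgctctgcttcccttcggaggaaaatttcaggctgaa
MRPS18A: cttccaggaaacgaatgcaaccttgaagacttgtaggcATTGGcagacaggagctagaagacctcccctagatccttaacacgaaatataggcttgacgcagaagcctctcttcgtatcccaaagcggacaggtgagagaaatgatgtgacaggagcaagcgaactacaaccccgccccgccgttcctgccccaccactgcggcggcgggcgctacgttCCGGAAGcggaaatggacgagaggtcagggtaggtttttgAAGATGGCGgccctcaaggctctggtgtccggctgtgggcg
MRPS10: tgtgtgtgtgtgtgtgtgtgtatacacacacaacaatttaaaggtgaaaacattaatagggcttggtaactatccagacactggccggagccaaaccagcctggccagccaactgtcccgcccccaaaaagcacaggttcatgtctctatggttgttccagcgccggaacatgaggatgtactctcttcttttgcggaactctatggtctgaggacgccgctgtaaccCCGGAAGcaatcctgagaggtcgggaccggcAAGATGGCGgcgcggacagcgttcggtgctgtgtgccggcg
The ETS letters began 222 bases before the start in MRPS18C and 145 bases before it in MRPL30, and MRPL44 held only a CCAAT match. In MRPS18A and MRPS10 the ETS letters began 31 and 22 bases before the start, and the YY1 letters began 9 bases after it in both. Of the 69 members, 29 (42.0%) held the ETS letters and 18 (26.1%) the YY1 letters. Among the 9136 compared genes with a window, the shares were 20.1% and 7.29%, and among all 15843 protein-coding windows they were 14.2% and 4.81%. Within 50 bases of the start, 24 members (34.8%) had an ETS match and 17 (24.6%) a YY1 match, against 11.8% and 5.55% of compared genes. CCAAT was held by 20 members (29.0%) and by 37.1% of compared genes, the NRF1 palindrome by MRPL17 alone (1.45% against 2.28%), and TATAAA by MRPL54 and MRPS15 (2.90% against 5.87%). None of these letter patterns is contained in another. Only exact matches were counted, so the shares leave out variants of these patterns, including those of the NRF1 palindrome. A match is a run of letters and says nothing on binding in these cells. The 29 members with ETS letters had a median log2 difference between the arrays of -0.04, and the 40 without had -0.05. With and without the YY1 letters the medians were -0.03 (18 genes) and -0.04 (51 genes).

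The array had 1 probe named for HOXA5 (NM_019102). The processed signal of this probe was 39.4 in mock-transfected cells and 346 with HOXA5 short RNA (log2 difference 2.83). By the study's text, HOXA5 short RNA skips exon 1 of HOXA5 and ends at its annotated polyA site. The study reports that coding HOXA5 mRNA did not change in these cells by quantitative PCR. Whether the probe read the transfected RNA or HOXA5 mRNA was not tested. Of the 7 colon epithelial markers, 6 were well above background on both arrays, among them EPCAM, CDX2 and KRT19, and VIL1 was not. Of 8 blood, endothelial and fibroblast markers, CD68 and COL1A1 were above background, with signals of 76.9 and 16.7 on the mock array. Differences are log2 processed signal, HOXA5 short minus mock, after subtracting the 75th percentile of each array, and a gene is the mean of its compared probes. A pair of gauges of error were available. The scanner software gave an error for each spot, which came to about 0.20 on the log2 difference of nearly all members. Over 590 probes printed in 10 spots, the difference of a single spot had an SD of 0.19, from 0.27 for signals under 50 to 0.12 for signals of at least 1000. The 7 detected RNA spike-ins had a median log2 difference of -0.47 (range -0.66 to -0.04) on this scale.

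The MRP genes as a group differed little between the arrays. Their median log2 difference was -0.05, with quartiles at -0.11 and 0.01, and the median of all 11994 genes was -0.02. The sign of the member median turned with the scaling: it was 0.05 with the arrays scaled to their medians, 0.08 with normexp background correction and 0.42 with the arrays scaled to the spike-ins. Of the 76 genes, 46 (60.5%) lay below the median of all genes, a count that simple rescaling cannot change, but 23 did so with normexp. In all, 60 genes (78.9%) lay within 0.19 of 0, the SD of a single spot, against 64.6% of all genes. Among genes with a mean signal of at least 200 on both arrays these shares were 81.9% of 72 members and 76.1% of 4484 genes. Bulk RNA cannot tell fewer expressing cells from less RNA per cell. With HOXA5 short RNA, 1 member was 2-fold or more higher (1.32%; all genes 0.642%) and 2 were 2-fold or more lower (2.63%; all genes 0.258%). In either direction, 3 members passed 2-fold (3.95%; all genes 0.900%) and 4 passed 1.5-fold (5.26%; all genes 4.38%), namely MRPL30 on the high side (all genes 2.78%) and MRPS18C, MRPL44 and MRPS25 on the low side (all genes 1.60%). Below 0 were 52 members (68.4%; all genes 54.6%). The 3 members past 2-fold each rested on 1 spot per array, and each had spots near it on the grid that differed 2-fold or more, as described with each gene.

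**Figure D1:**
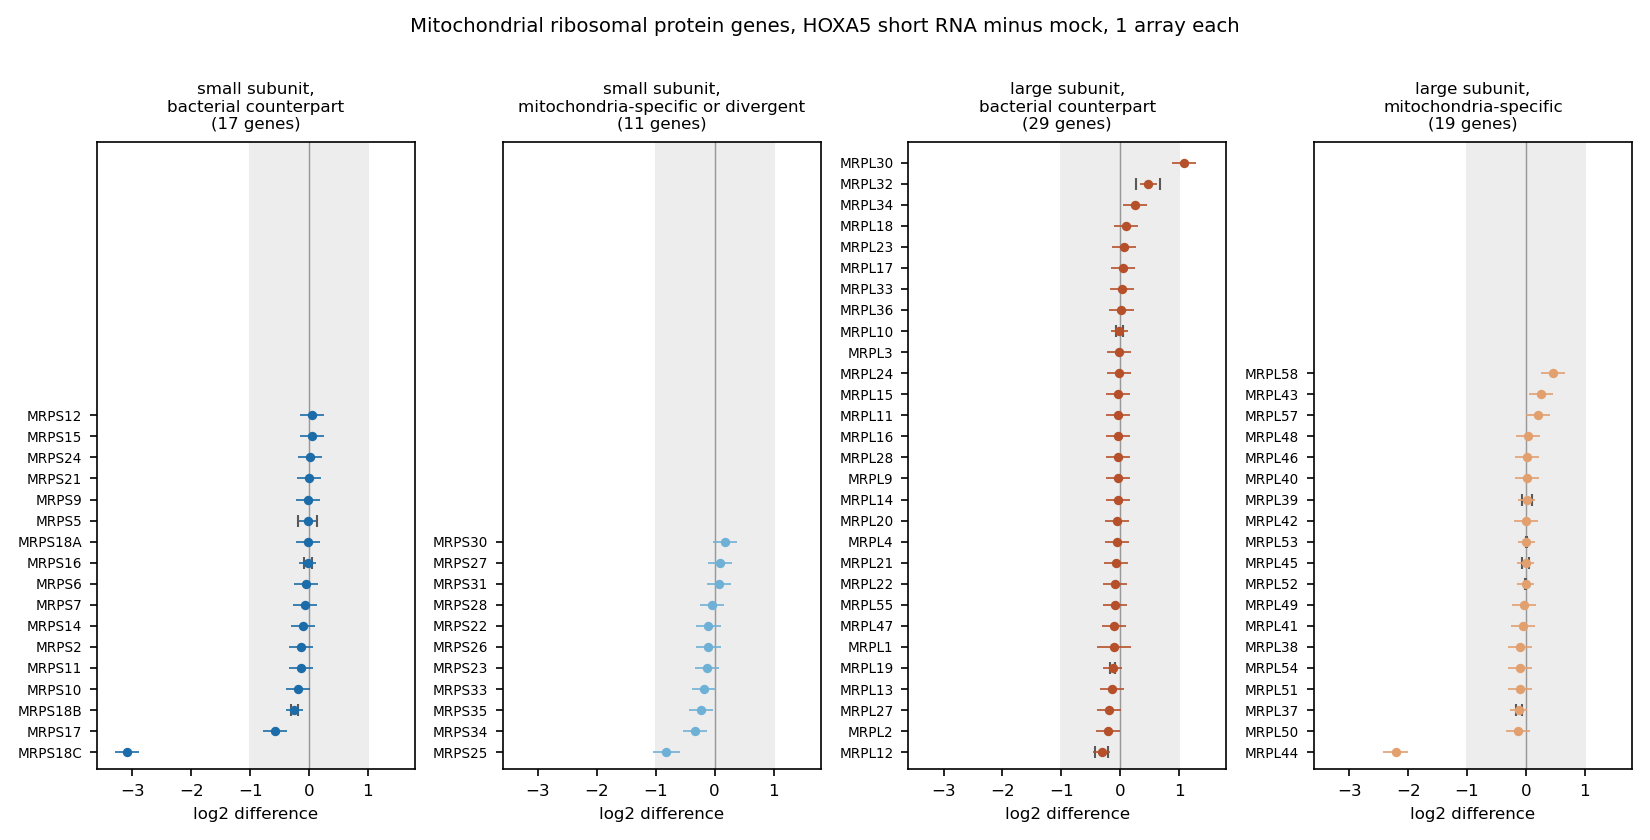
Log2 difference of each of the 76 compared MRP genes (HOXA5 short minus mock, 1 array each), in panels by subunit and origin; bars are the scanner software's error, not a spread between cultures, ticks are single probes where a gene had 2, and the gray band spans 2-fold. All but MRPS18C, MRPL44 and MRPL30 lie inside the band.

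**Figure D2:**
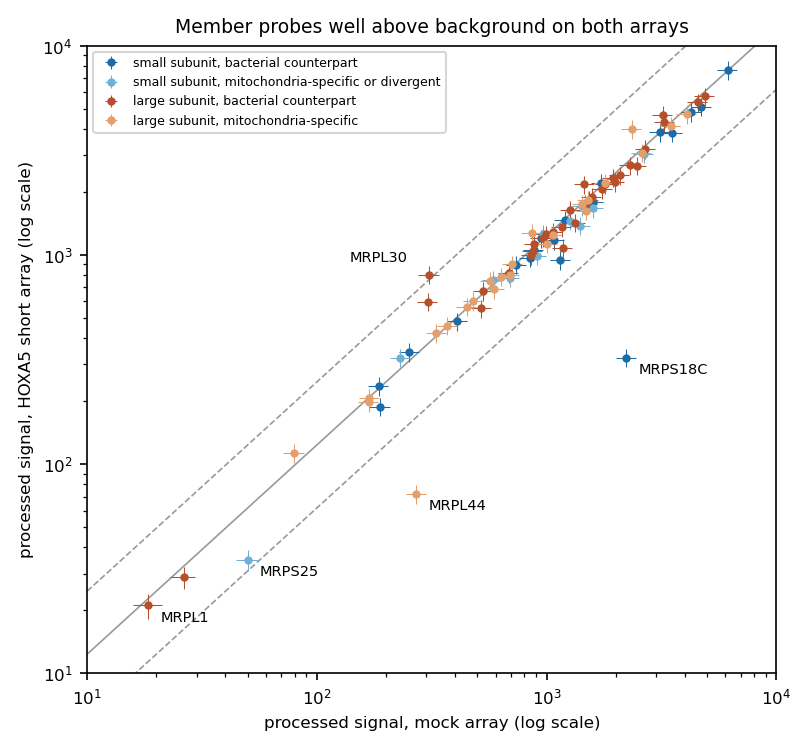
Processed signal of the 88 compared member probes on the mock array (horizontal, log scale) and the HOXA5 short array (vertical, log scale), with the scanner software's errors; the solid line marks equal scaled signal and the dashed lines 2-fold. MRPS18C (2222 and 323) and MRPL44 (271 and 72.1) lie under the lower dashed line and MRPL30 (308 and 803) just above the upper one.

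The groups below follow the gene symbols. The small-subunit genes with a bacterial counterpart numbered 17, and 13 of them were below 0 (median -0.05). MRPS18C encodes the mitochondrial counterpart of bacterial protein S18, one of 3 paralogs with MRPS18A and MRPS18B. Its probe (NM_016067) gave a signal of 2222 (error 222) in mock-transfected cells and 323 (error 32.3) with HOXA5 short RNA. The log2 difference was -3.09, an 8.51-fold lower signal with HOXA5 short RNA, and the lowest of all 11994 genes. The spot sits in the first column of the grid. Of the spots within 4 rows and 4 columns of it, 15 were well above background on 1 or both arrays. All 15 were lower on the HOXA5 short array, with a median of -1.81. Of the 15, 8 were above background on the mock array alone, and their values are measured differences, not bounds. Another 3 were outlier-flagged, and the 4 usable spots had a median of -1.37. Among them were RPL28 (322 and 232), JUP (1818 and 969) and CHKA (413 and 177), which encode a cytosolic ribosomal protein, a junction protein and choline kinase. With the median of the usable neighbors subtracted, the difference of MRPS18C was -1.72. A second MRPS18C probe, elsewhere on the grid, was not well above background on either array, at 3.99 and 2.68, and so gave no second measurement.

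The paralogs had values closer to 0. MRPS18B was measured by 2 probes, which gave -0.31 (signals 188 and 188) and -0.19 (4705 and 5104), and MRPS18A by 1 probe, which gave -0.02 (737 and 897). Structures of the human mitochondrial ribosome place the MRPS18A protein in the large subunit despite its symbol. MRPS17, an RNA-binding protein of the small subunit, was the second lowest of this group, at 1144 (error 114) and 944 (error 94.4), a log2 difference of -0.58. None of its 23 usable neighbors differed 2-fold, and their median was -0.12. At the upper end were MRPS12, a protein of the decoding center, at 0.05 (1725 and 2210) and MRPS15 at 0.04. MRPS5, which lies near the mRNA entry, had probes at -0.18 and 0.14.

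The 11 small-subunit genes that are specific to mitochondria or strongly diverged had a median of -0.10, and 8 were below 0. MRPS25 was the lowest, with signals of 49.9 (error 5.27) and 34.9 (error 3.95). Its log2 difference of -0.82 was the 63rd lowest of all genes. It was one of the dimmest members, its software error of the difference was 0.22, and its 29 usable neighbors had a median of -0.35, with 1 past 2-fold. With that median subtracted, MRPS25 was at -0.47. MRPS34, needed for the stability of the small subunit, followed at 1401 and 1378, a log2 difference of -0.33, and MRPS35 at 1592 and 1667, a difference of -0.24. The neighbors of MRPS35 had a median of -0.23, so that its difference from them was close to 0. The highest were MRPS30 at 0.18 (231 and 322), whose protein also sits in the large subunit of known structures, MRPS27 at 0.08 (962 and 1259), a pentatricopeptide repeat protein, and MRPS31 at 0.07 (584 and 758). All differences of this group but those of MRPS25, MRPS34 and MRPS35 were within 0.19, the SD of a single spot pooled over all signal levels. For signals of 200 to 1000 that SD was smaller, at 0.17, and MRPS30 and MRPS33 (-0.18, signals 907 and 989) exceeded it.

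Of the 30 large-subunit genes with a bacterial counterpart, 29 were compared, and 21 were below 0 (median -0.04). MRPL30, the counterpart of bacterial L30, was the only member past 2-fold on the high side. The mock array gave it a signal of 308 (error 30.8) and the HOXA5 short array 803 (error 80.3). The log2 difference was 1.08, the 65th highest of all genes. Of its 10 usable neighbors, 4 differed 2-fold, all upward, and their median was 0.68. An area is called uneven here when at least 10 usable neighbors were present and at least 10% of them differed 2-fold. In such areas lay 2.59% of all probes printed once. With the neighbors' median subtracted, MRPL30 was at 0.40. Of the 17 spots around it that were above background on 1 or both arrays, 15 were higher on the HOXA5 short array.

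MRPL32, a protein that is matured by a mitochondrial protease before it joins the ribosome, was the next highest at 0.47. Its probe printed once gave 304 (error 30.4) and 596 (error 59.7), a difference of 0.67, with none of 22 neighbors past 2-fold. Its other probe, printed in 10 spots, gave 0.27. MRPL34 was at 0.24 (3194 and 4665), with a neighbor median of 0.17, and MRPL18 was at 0.10 (3255 and 4310). MRPL12 forms the flexible stalk that recruits translation factors, and MRPL10 anchors it. MRPL12 was the lowest of this group, with both probes below 0, at -0.43 (1177 and 1081) and -0.21 (1333 and 1425), and a mean of -0.32. The usable neighbors of the lower probe had a median of -0.27, and those of the other probe -0.02. MRPL10 was near 0, with probes at -0.07 and 0.04. MRPL2, a protein close to the peptidyl transferase center, was at -0.21 (519 and 554) and MRPL27 at -0.20 (2472 and 2665). Apart from MRPL30, the members of this group lay between -0.32 and 0.47.

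The 19 large-subunit genes specific to mitochondria were the most evenly split, with 9 above and 10 below 0. MRPL44, a large-subunit protein with a fold related to RNase III, was an exception in size. The signal was 271 (error 27.1) in mock-transfected cells and 72.1 (error 7.40) with HOXA5 short RNA. This was a 4.64-fold lower signal (log2 difference -2.21), the 3rd lowest of all genes. Of its 21 usable neighbors, 1 differed 2-fold, and their median was -0.29. The spots nearest to it were more uneven than this count shows. A pair of outlier-flagged spots 2 rows away, for RMI1 and ZZZ3, went from 235 to 39.6 and from 150 to 31.8. In the other direction, the HSF5 spot 1 row away went from 1.55, not above background, to 25.3. Counted with the spots detected on 1 array, taken at their bounds, 4 of 30 differed 2-fold. This count was chosen after seeing the data. The 4 spots were at 1.40 (HSF5), 1.19, 2.24 and -1.05, so most of these 4 went the other way from MRPL44. Around MRPL44, 32 spots were above background on 1 or both arrays, flagged spots included. Of these, 25 were lower on the HOXA5 short array and 7 were higher, with a median of -0.28. With the median of the usable neighbors subtracted, MRPL44 was at -1.93.

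At the other end of this group, MRPL58, a peptidyl-tRNA hydrolase that frees stalled ribosomes and is built into the large subunit, was at 0.46 (2348 and 3994), with 1 of 27 neighbors past 2-fold and a neighbor median of -0.06. This exceeded the software error of 0.20 and the SD of a single spot. MRPL43 was at 0.26 (862 and 1276) and MRPL57 at 0.20 (79.6 and 113). MRPL50 was at -0.14 (1005 and 1129). MRPL45, which tethers the ribosome to the inner membrane, had probes at -0.06 and 0.05. MRPL39 had probes at -0.07 and 0.10.

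**Figure D3:**
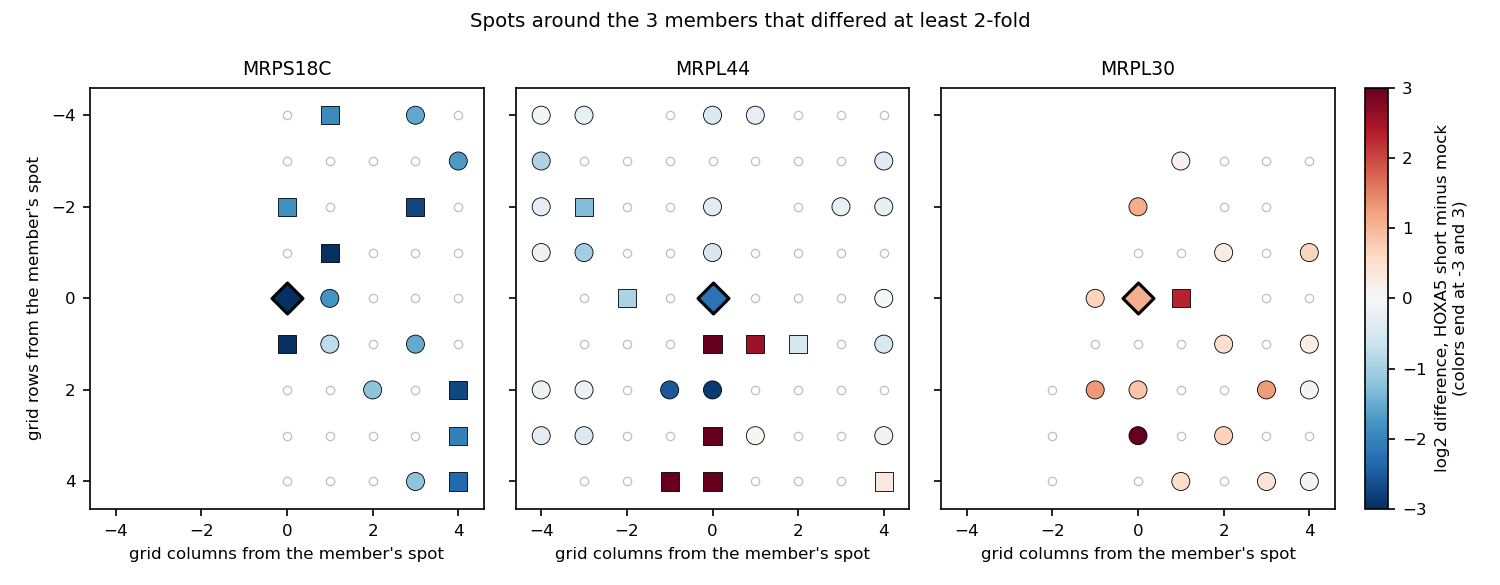
Grid positions, in rows and columns from the spot of MRPS18C, MRPL44 and MRPL30 (diamonds), colored by log2 difference, HOXA5 short minus mock; circles were well above background on both arrays, squares on 1 array (their color is the measured difference, not a bound), and small open circles on neither. Every colored spot around MRPS18C is blue (15 of 15 lower), 15 of 17 around MRPL30 are above 0, and strong reds and blues lie side by side below MRPL44.

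The grid around the other members was mostly even. Of the 82 compared member probes printed once, 67 (81.7%) had no 2-fold neighbor, against 82.0% of all such probes, 12 had 1 and 3 had more. The 3 were MRPS18C (3 of 4), MRPL30 (4 of 10) and MRPL39 (3 of 40). Only MRPL30 and MRPS14 met the definition of an uneven area, MRPS14 with 1 of 10, and MRPS14 was itself at -0.11. Whether position on the grid accounts for the differences of MRPS18C, MRPL44 and MRPL30 was not tested. The window is wider than it is tall, because grid columns lie farther apart than rows.

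Probes printed in 10 spots and genes with several probes gave a direct view of measurement error within the arrays. The 6 member probes printed in 10 spots had mean differences of -0.13 ± 0.14 (MRPS23, SD over 10 spots), -0.09 ± 0.12 (MRPL19, 9 spots), -0.09 ± 0.21 (MRPL22, 9 spots), -0.05 ± 0.11 (MRPS6, 8 spots), 0.04 ± 0.10 (MRPS15, 10 spots) and 0.27 ± 0.23 (MRPL32, 10 spots). The copies of 1 probe share the RNA and the array, so these SDs hold no biological spread. MRPL32 was the only one whose copies all lay on the same side of 0, from 0.09 to 0.70 with a median of 0.14. Its copies ranged from 1153 to 1669 on the mock array and from 1983 to 2313 on the HOXA5 short array, without overlap. After scaling to the 75th percentiles the mock copies reached 2060, so that the ranges overlapped. Of the copies of MRPS23, 9 of 10 were below 0, and of those of MRPL19 and MRPL22, 8 of 9. The single spot of MRPL22 at 0.44 had no 2-fold neighbor among 23, which shows how far 1 spot of a bright probe can lie from its copies. Of the 12 genes with 2 compared probes, the probes differed by a median of 0.11, from 0.01 (MRPL52) to 0.40 (MRPL32), and in 9 genes by less than the SD of a single spot. The widest gaps after MRPL32 were those of MRPS5 (0.32), MRPL12 (0.22), MRPL39 (0.17) and MRPS16 (0.13). The other 64 genes rested on 1 probe.

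**Figure D4:**
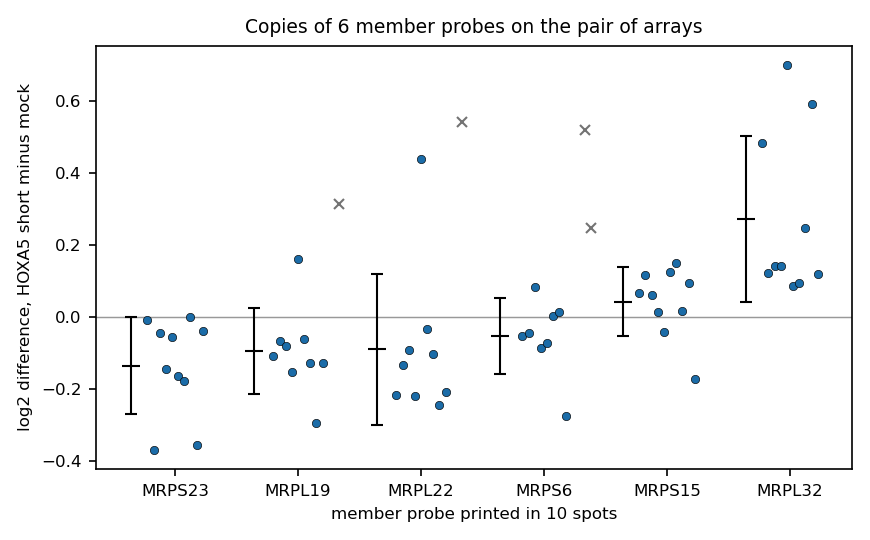
Log2 difference, HOXA5 short minus mock, of each copy of the 6 member probes printed in 10 spots; circles are copies used, crosses are copies flagged as outliers and left out, and bars are the mean and SD over the copies used. Means range from -0.13 (MRPS23) to 0.27 (MRPL32), and 1 copy of MRPL22 stands apart at 0.44.

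The 3 member probes that were not compared leave bounds at most. MRPL35 is a large-subunit protein with a bacterial counterpart and a single probe. It gave 8.90 (error 2.10), not well above background, in mock-transfected cells and 34.4 (error 4.04) with HOXA5 short RNA. The scaled signal was 3.13-fold higher, with a software error of 0.38 on the log2 difference. Of the 27 usable neighbors of MRPL35, 4 differed 2-fold, so it too lay in an uneven area. The bound sets the bright value against the dim one, or against the lowest detected signal of that array (7.74 for mock) where this is higher. For MRPL35 the dim value was the higher, so the bound equals the measured ratio and is no firm limit. The second probe of MRPL43 was detected on the HOXA5 short array alone, at 9.03 against 3.10, and the bound gave no fold above 1. The second MRPS18C probe was detected on neither.

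Several MRP genes start back to back with another gene. Of the 69 members with a window, 18 (26.1%) had a protein-coding start on the other strand, pointing away, within 1000 bases, against 14.2% of the compared genes. In 15 distinct pairs both genes were compared, 1 of them a pair of members. The other 14 partners lay between -0.40 and 1.04, with a median of 0.05. HELQ, a DNA helicase whose start lies 175 bases from that of MRPS18C, was at -0.40 beside -3.09. MITD1, 126 bases from MRPL30, was at -0.08 over 2 probes beside 1.08. The partner past 2-fold was TCP1, a chaperonin subunit, at 1.04 over 2 probes, and its neighbor MRPL18 was at 0.10. MRPL46 and MRPS11 share a bidirectional start region, 320 bases apart, and were at 0.02 and -0.14. MRPS12 and SARS2, the mitochondrial seryl-tRNA synthetase, were at 0.05 and -0.12.

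The other lists for mitochondrial gene expression are given by their ends and medians. The 5 mitoribosome proteins under other symbols lay between -0.39 (PTCD3) and 0.15 (DAP3), with GADD45GIP1 at -0.24 and CHCHD1 at 0.08. None of the 14 compared translation factors passed 2-fold (median 0.03), and the ends were GUF1, related to bacterial LepA, at -0.46, the initiation factor MTIF3 at -0.21, TACO1, which activates translation of a cytochrome oxidase subunit, at 0.65 and MTRF1, a release factor, at 0.77 (37.9 and 79.9). The 19 aminoacyl-tRNA synthetase genes, with the amidotransferase subunits, had a median of 0.02 and ran from GATB at -0.36 and FARS2 at -0.20 to TARS2 at 0.22 and EARS2 at 0.24. Of 24 assembly and rRNA modification genes (median 0.05), 1 passed 2-fold: METTL17, a mitoribosome assembly factor, at 1.27 (144 and 428). Its spot was one of the 4 changed neighbors of MRPL30, and 4 of its own 17 neighbors differed 2-fold. NOA1 at 0.57 was the next highest, and MPV17L2 at -0.26 and MTG1 at -0.13 were the lowest. The 16 transcription and mRNA genes (median 0.11) ran from TEFM at -0.29 and LRPPRC at -0.28 to SLIRP at 0.25 and MTERF1 at 0.70. Over these 5 lists, 1 of 78 genes passed 2-fold and 45 were above 0, with a median of 0.04. Within the SD of a single spot lay 62.8% of them, against 78.9% of the MRP genes. These shares were not matched for signal level. Some genes of the 5 lists were dim, such as GTPBP10 (9.43 and 12.5), and the single-spot SD was larger for dim probes.

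The 75 nuclear genes for respiratory chain and ATP synthase subunits had a median of -0.06, and none passed 1.5-fold. They ran from NDUFB10 at -0.44 and NDUFA8 at -0.43 to UQCRH at 0.34 and SDHD at 0.34. The 78 cytosolic ribosomal protein genes had a median of 0.05. RPL36 was among the lowest at -0.42, and the highest were RPLP1 at 0.82 and RPL17 at 1.16. RPL17 was the mean of 4 probes that spread from 0.05 to 4.16. Below 0 were 49 of the 75 respiratory chain genes (65.3%), 29 of the 78 cytosolic ribosomal protein genes (37.2%) and, as above, 68.4% of the MRP genes, counts that move with the scaling and were not tested against each other.

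**Figure D5:**
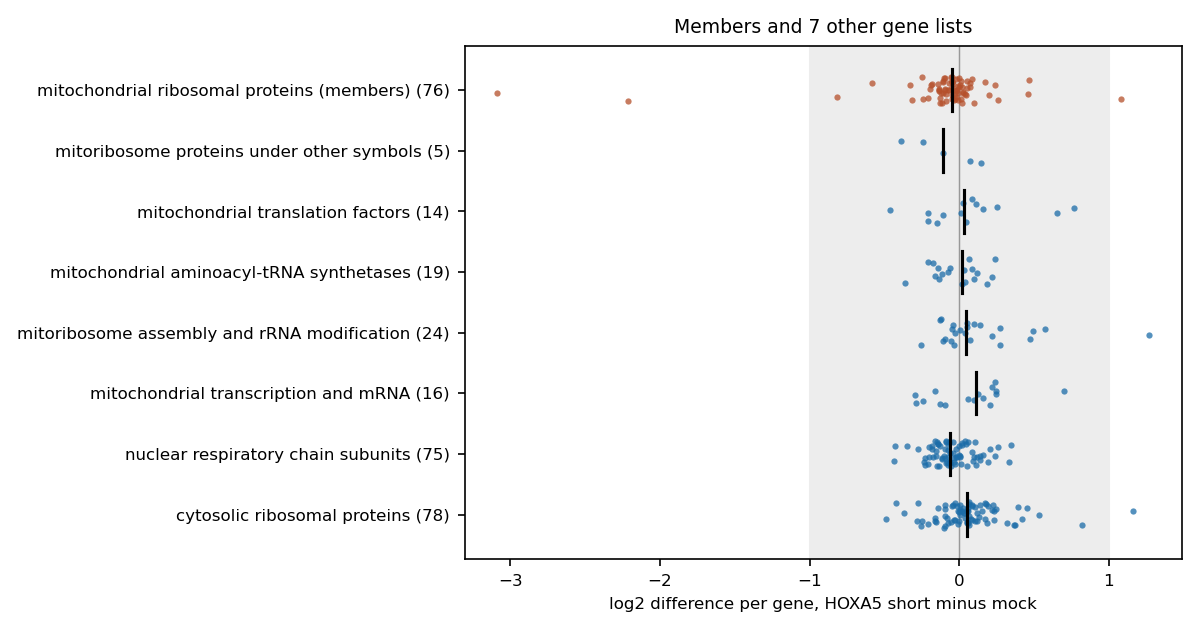
Log2 difference per gene, HOXA5 short minus mock, of the 76 MRP genes and 7 other lists (genes compared in parentheses; vertical spread within a row is for display only); black lines are medians and the gray band spans 2-fold. The medians lie between -0.11 (mitoribosome proteins under other symbols) and 0.11 (transcription and mRNA), and METTL17 and RPL17 are the only genes of the other lists past the band.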

How the data were processed

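Expression was measured in 2 samples of HCT116 cells, grouped by the genotype label, with 1 array each. Per the file headers, Feature Extraction 11.5.1.1 read the spots, with an hg19 annotation. The deposited scanner output holds background-subtracted spot intensity, linear in scale, with errors and detection flags. A table of log2 values for 19461 probes, which the authors deposited as well, was used as an alternative. Each of its probes is centered on its own mean (column medians 0.0057 for mock and -0.0057 for HOXA5 short), so that levels are lost, and its scaling is not given in the sources used here.

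Outlier-flagged spots were left out, log2 intensities were averaged per probe, and each array's 75th percentile over non-control probes was subtracted. Probes had to be well above background on both arrays. Accessions were matched to RefSeq symbols (GRCh38.p14), which named 30004 probes (59.3%). Usable neighbors were unflagged spots above background on both arrays within 4 rows and 4 columns. No spot was saturated. With 1 array per group nothing was tested, and precision is limited by that number. Members and lists were chosen with earlier results of these data known. Named are members past 2-fold, the 10 highest and 10 lowest, the 2 highest and 2 lowest of each role group, the 5 with the widest gap between probes and those not compared, and of other lists the 2 highest and 2 lowest and any past 2-fold, apart from 1 gene that is not reported here. Scripts were tested on simulated data. Alternatives were other scalings, normalizations (limma 3.58.1, R 4.3.3), normexp (offset 50), filters, probe choices and treatments of uneven areas. Python 3.11.15, numpy 2.4.6 and pandas 2.3.3 were used.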

Additional observations from a re-analysis of the deposited data

How the results depend on the processing

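No paired analysis was possible because each group had 1 array and no test was run. Spots were left out that lay in uneven areas (among them MRPL30 and MRPS14), or that had under 10 usable neighbors of which any differed 2-fold (MRPS18C). Among the 73 members kept, 0 were higher and 1 lower at 2-fold, and 2 passed 1.5-fold. With such areas counted from spots detected on at least 1 array, chosen after seeing the data, MRPS18C, MRPL44 and MRPL30 were themselves left out. For that reason 0 of the 73 members kept were higher and 0 lower at 2-fold, and 1 passed 1.5-fold. With the neighbors' median subtracted, 0 were higher, MRPS18C and MRPL44 stayed 2-fold lower, 2 passed 1.5-fold, and the median was -0.013. Normexp left 0 members 2-fold higher and a median of 0.084. The authors' log2 values and the unfiltered probes each gave 2 members 2-fold higher, the second being MRPL35. Signals above the median of compared probes, chosen after seeing the data, left 1 member 2-fold lower and 2 past 1.5-fold. The member median was 0.053 with median scaling, -0.014 with cyclic loess and 0.42 with the spike-ins, which moved the median of all genes by 0.47 and put 9 members past 1.5-fold. Beside all genes, the member median differed by -0.02 at the reported setting, 0.05 with normexp and 0.06 without a filter, where the background of all genes held 446 higher and 564 lower. With a window of 2 rows and 2 columns, 4 of 82 probes had a 2-fold neighbor, against 15. Of 369 values of 27 single genes under 14 alternatives, 328 moved by less than 0.19, 41 by more, and 0 turned a 2-fold difference around. The smallest sizes were -1.72 for MRPS18C and -1.55 for MRPL44, where they were kept. Dim probes such as MRPL1 (18.5 and 21.1) and MRPS25 had the largest errors.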

Other observations

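Probes for non-coding transcripts with names like those of the MRP genes fell outside the rule and were mostly near background. MRPL20-AS1, the antisense partner of MRPL20, was the one well above background on both arrays, at 86.5 (error 8.86) and 103 (error 10.5), a log2 difference of -0.06. MRPL20 itself was at -0.06 (2692 and 3199). MRPS30-DT, transcribed away from MRPS30, was detected on the HOXA5 short array alone, at 8.57 against 4.33. All 3 probes of MRPL23-AS1, the probe of MRPS9-AS2 and the probe of the pseudogene MRPS31P5 did not reach the level called well above background on any array. By chromosome, the compared MRP genes were most numerous on chromosomes 1 and 17, with 8 each, and the medians there were -0.05 and -0.08. Chromosomes 2 and 11 followed with 7 genes each and medians of -0.0095 and -0.03.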
